A study of Mus musculus with 2 samples.

Results

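Attaching ubiquitin to a protein takes an activating enzyme, a conjugating enzyme and a ligase, and deubiquitinases take it off again. Conjugating enzymes (Ube2 genes) carry the activated ubiquitin, or a relative of it such as NEDD8, and help to decide which kind of chain is built. Deubiquitinases of the Usp, Otud and Uchl families cut ubiquitin from substrates, from the proteasome's incoming cargo or from free chains. In T cells both sides act on antigen receptor signalling, NF-kappaB activation and cell division.

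These genes were taken from the array by symbol. A probe set was included when its platform annotation named exactly 1 gene and that symbol began with Ube2, with Usp and a digit, with Otud or with Uchl; Usp18 was left out. The symbol alone decided, although the families were picked with earlier results of these data known. This gave 130 of 22690 probe sets and 73 of 12393 genes. By symbol, 27 genes (50 probe sets) belong to the Ube2 family, here called conjugating enzymes, and 46 genes (80 probe sets) to deubiquitinase families. Enzyme activity of each member was not used to sort them. A further 8 probe sets carry such a symbol together with other genes and were not used.

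The RNA came from splenic CD4+ T cells of DBA/1 mice, the strain susceptible to arthritis, and of C57BL/6 mice, the resistant strain, both collected on day 7 after immunisation with GPI (glucose-6-phosphate isomerase). There was no unimmunised group, so the comparison is between strains after the same treatment. A difference in how the strains responded to immunisation cannot be told apart from one present before it. Each strain was measured on 1 array, so no gene carries a test or a replicate error. The labels and the design text used here name no age, sex or number of mice, and the labels describe the cells only as CD4+T.

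Signals are MAS5 intensities on a linear scale, as deposited. Each array's median signal (37.6 for DBA/1, 38.04 for C57BL/6) served as a floor for weak signals, and the compared quantity is the log2 ratio of DBA/1 over C57BL/6. Where a gene had several probe sets, the brightest on average (mean log2 signal over both arrays) was used. Probe sets that share a gene give the only repeat measurement: for 2325 genes, ratios from a pair of them differed with an SD of 0.43, an error of 0.31 per probe set on the log2 scale, and the 23 such members gave the same 0.31. That error covers probes only, not mice, sorts or labelling.

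All 8 measured markers of CD4 T cells were over the floor on both arrays, with a list median log2 ratio of -0.057. Of these, 2 were higher in DBA/1 and 6 lower, from Cd4 at 913 and 857 (0.092) to Thy1 at 1143 and 1664 (-0.54). After median centring, quantile normalization and lowess the list median was -0.14, -0.22 and -0.21. Markers of several other kinds of spleen cell differed between the samples. Of 13 neutrophil genes 12 had a ratio and all 12 were higher in DBA/1 (median 1.88, summed signal 34882 against 10737; Cxcr2 did not reach the floor on either array). Of 13 monocyte and macrophage genes 12 were higher (median 0.86, summed signal 6969 against 3132), and of 9 B cell genes with a ratio 7 were higher (median 1.09, summed signal 4950 against 4166; Pax5 did not reach it either). The B cell genes that were not higher were Cd72, at 45.0 and 146 (-1.70), and Ighm (-0.0097). All 5 CD8 T cell genes were lower in DBA/1 (median -1.06, summed signal 382 against 995). Of 3 NK cell genes with a ratio 1 was higher and 2 lower (median -0.49), and all 4 plasma cell genes with a ratio were higher (median 0.64). Erythroid genes were near even, with 3 of 7 higher and 4 lower (median -0.074). The part of these cells in the ratios below was not tested. In such bulk RNA, fewer cells of a type and less RNA per cell cannot be told apart. RNA integrity, read from the Actb control as 3' signal divided by 5' signal, came to 1.25 for DBA/1 and 1.27 for C57BL/6, and from the Gapdh control to 0.781 and 0.709.

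The median of conjugating enzymes lay where that of the array's genes in general lay, and the median of deubiquitinases lay lower in DBA/1. Of 27 conjugating enzyme genes 25 had a signal over the floor on at least 1 array; their median log2 ratio was 0.10, with 15 higher in DBA/1 and 10 higher in C57BL/6. Of 46 deubiquitinase genes 31 had such a signal, with 12 higher in DBA/1 and 19 higher in C57BL/6. Their median was -0.089, with quartiles of -0.33 and 0.18, while the quartiles of conjugating enzymes were -0.19 and 0.23. Of the 19, 10 were among the 11 Usp genes without a named role below (median -0.35). The 8 histone and DNA damage deubiquitinases and the 6 of immune signalling had medians of -0.024 and -0.016, with as many higher as lower. Usp14, Usp8 and Uchl5 were higher in DBA/1, and 2 of 3 Otud genes were lower. The median of all 6947 genes with a ratio was 0.10, and 60.6% of them were higher in DBA/1 and 39.4% in C57BL/6. The medians of the classes were thus 0.19 apart on the log2 scale, a gap that could not be tested with 1 array per strain.

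**Figure D1:**
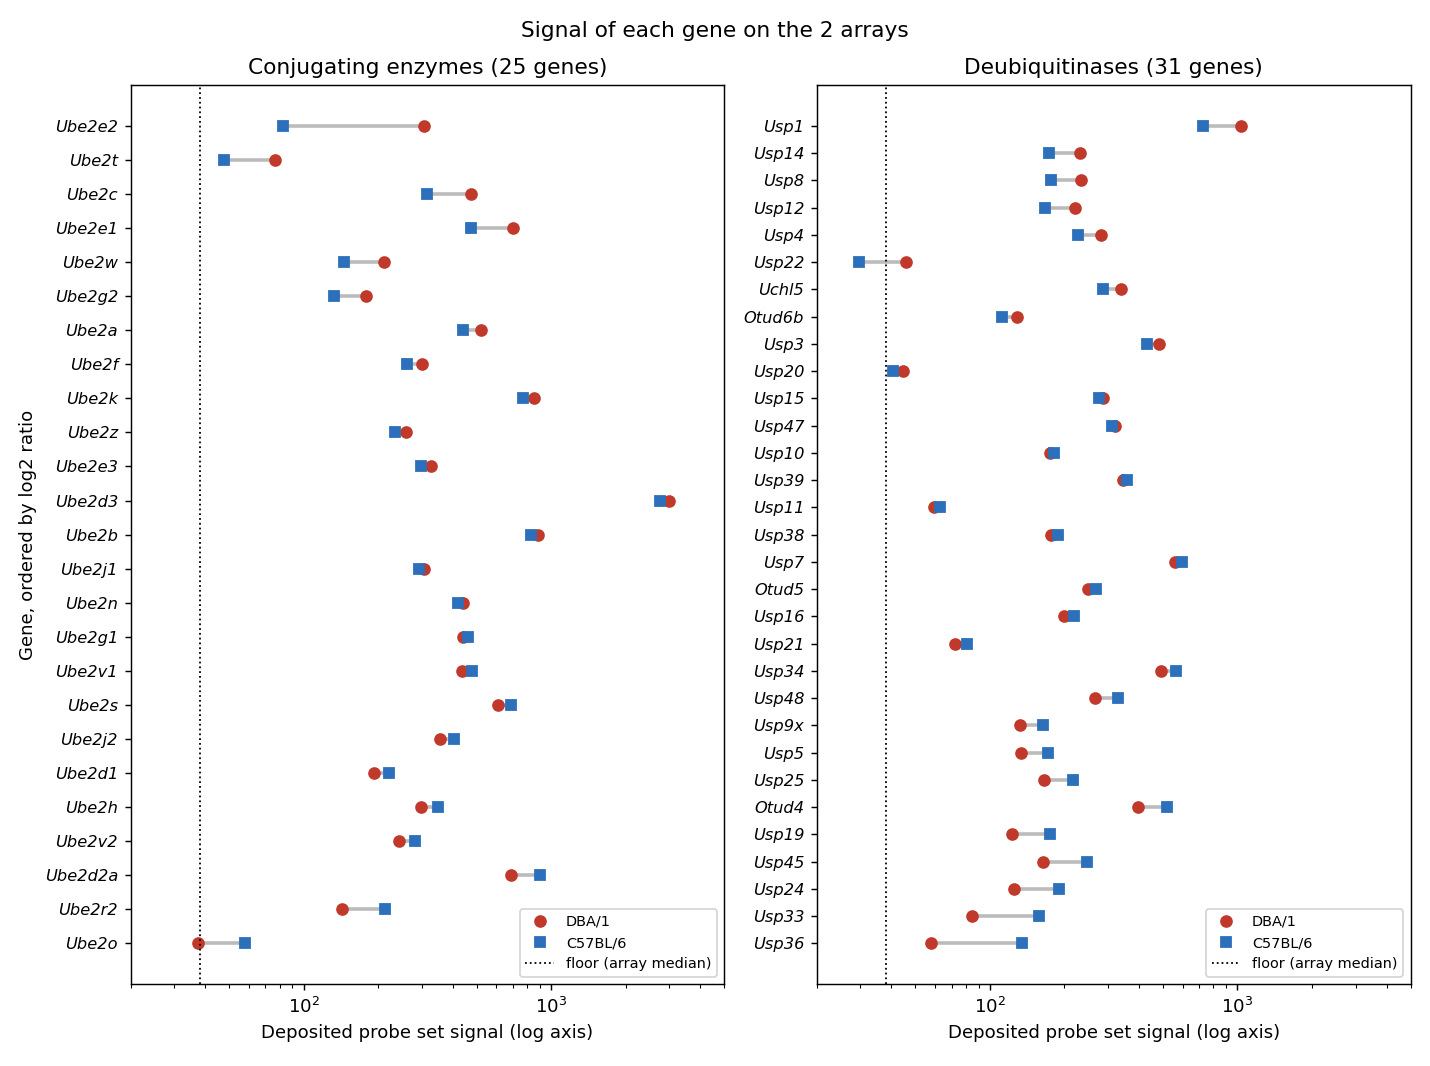
Deposited signal (log axis) of each of the 25 conjugating enzyme genes and 31 deubiquitinase genes with a ratio, ordered by log2 ratio; red circles are DBA/1, blue squares C57BL/6, and the dotted line is the C57BL/6 floor of 38.04. The markers lie close together for most genes, while Ube2e2 (305 against 82.1) and Usp36 (57.8 against 134.6) stand furthest apart.

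Of 3 other scalings of the arrays, quantile normalization and lowess could change the distance between class medians and all genes. With both, the deubiquitinase median lay under that of all genes. Median centring takes the same amount off every ratio, so it could not change that distance. The sign of the conjugating median changed with the scaling. After median centring, quantile normalization and lowess the deubiquitinase median was -0.17 each time, against 0.015, 0.020 and 0.024 for all genes. The conjugating median was 0.017, -0.035 and -0.038. Conjugating enzymes higher in DBA/1 numbered 13, 11 and 11 of 25 under these scalings, against 15 as deposited. Deubiquitinases numbered 10 of 31 under each, against 12. The share of all genes higher in DBA/1 fell too, to 51.7%, 52.2% and 52.4%, against 60.6% as deposited. Ube2b, Ube2d3, Ube2j1, Ube2n, Usp15 and Usp47 changed sign under at least 1 scaling; their ratios as deposited were all between 0.045 and 0.11.

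The gap was also present at the level of probe sets and within ranges of signal, which use the same genes and arrays and are no separate measurement. Of 42 conjugating probe sets over the floor on both arrays 27 were higher in DBA/1 (median 0.11), of 50 deubiquitinase probe sets 16 (median -0.10), and of all 9846 such probe sets 59.04% (median 0.082). Among genes in the middle tercile of mean signal, 8 conjugating enzymes had a median of 0.17 and 17 deubiquitinases one of -0.10, against 0.096 for all genes there. In the upper tercile, 15 conjugating enzymes had 0.070 and 9 deubiquitinases -0.057, against 0.14 for all genes, so both classes lay under the general level there. The lower tercile held only 2 conjugating enzymes (0.028) and 5 deubiquitinases (-0.083), against 0.046 for all genes.

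**Figure D2:**
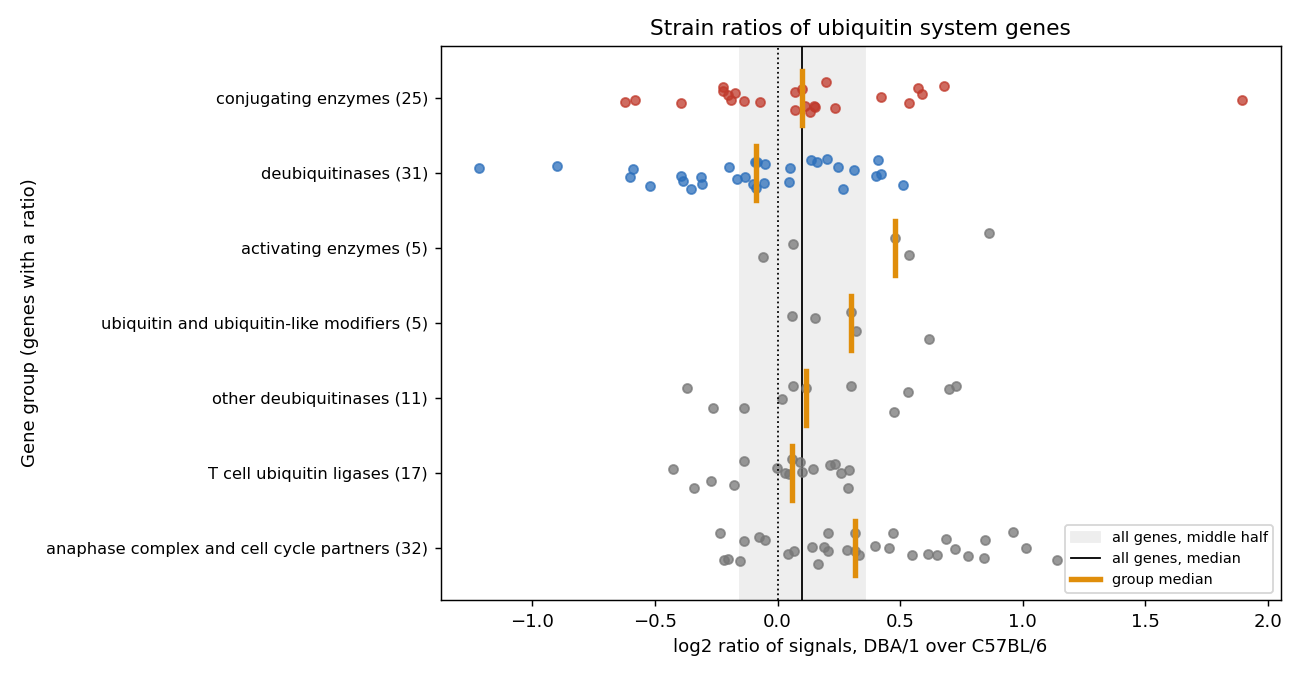
Log2 ratio of signals (DBA/1 over C57BL/6) of every gene with a ratio in 7 groups of the ubiquitin system, with orange bars at group medians, the solid line at the median of all genes (0.10) and grey shading from their 25th to 75th percentile (-0.15 to 0.36). The deubiquitinase bar (-0.089) is the only group median to the left of 0 as deposited; after median centring that of the T cell ligases is too (-0.027).

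Few members differed by a clear margin. At 1.5-fold or more, 3 members (5.36% of the 56 with a ratio) were higher in DBA/1, where 11.8% of all genes with a ratio passed, and 5 members (8.93%) were higher in C57BL/6, where 6.05% passed. All 3 in the first direction were conjugating enzymes, and 4 of the 5 in the second were deubiquitinases. At 2-fold, Ube2e2 alone was higher in DBA/1 and Usp36 alone in C57BL/6, against 3.84% and 1.96% of all genes. With counts this small neither share reads as a property of the family. Nearest to the 1.5-fold limit were Ube2c (1.505-fold) and Usp45 (1.51-fold) inside it and Ube2r2 and Ube2e1 (both 1.49-fold) outside it.

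Ube2e2 showed the largest difference. It belongs, with Ube2e1 and Ube2e3, to conjugating enzymes that carry an extension at the N terminus before a core like that of the Ube2d enzymes. Ube2e2 read 305 in DBA/1 and 82.1 in C57BL/6, a log2 ratio of 1.90 (3.72-fold), and 0.619% of all genes with a ratio lay as far or farther in that direction. It has 1 probe set, so no other measurement of the gene was at hand. Ube2e1 read 702 and 473 (log2 ratio 0.57), and Ube2e3 read 327 and 299 (0.13).

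Ube2e1 and Ube2e2 are neighbours in the RefSeq gene order of assembly GRCm38.p6. The next measured genes on the Ube2e1 side did not share the direction: Nkiras1 read 77.9 and 96.6 (log2 ratio -0.31) and Nr1d2 read 244 and 245 (-0.0071). On the far side of Ube2e2 the nearest measured gene, Nid2, did not reach the floor on either array.

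Ube2d enzymes are the partners of a very wide range of ubiquitin ligases. Ube2d3 read 2981 in DBA/1 and 2758 in C57BL/6 (log2 ratio 0.11), Ube2d1 read 193 and 222 (-0.20), and Ube2d2a read 686 and 900.1 (-0.39). The last value did not hold across probe sets. The other 3 probe sets of Ube2d2a had ratios of 0.11, 0.086 and -0.011, and without the probe sets that carry an added letter in their suffix (shared transcripts, or possible cross-hybridisation) the gene stood at 0.11. The 7 probe sets of Ube2d3 ran from -0.48 to 0.36, with 5 above 0. Ube2d2b did not reach the floor on either array.

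The conjugating enzymes of the cell cycle were next. Ube2c starts ubiquitin chains on substrates of the anaphase-promoting complex, Ube2s extends those chains, and Ube2t serves the Fanconi anaemia pathway of DNA crosslink repair. Ube2c read 475 in DBA/1 and 316 in C57BL/6 (log2 ratio 0.59, 1.505-fold). Ube2t read 76.2 and 47.6 (0.68, 1.60-fold), a weak signal on both arrays, and its ratio shrank to 0.075 with the floor at percentile 60. Ube2s went the other way at 611 and 689 (-0.17). Under median centring, quantile normalization and lowess Ube2c kept its direction but lay under 1.5-fold, at 0.50, 0.49 and 0.47.

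Their promoters are shown because cell cycle genes are often controlled through CCAAT boxes and a downstream cell cycle homology element, here taken as TTTGAA. The 150 bases upstream of the RefSeq start (build GRCm38.p6) were searched on both strands for these motifs. Matches are in capitals, in the orientation in which they occur on the gene's strand, and no motif overlapped another. The stretches are chr2:164769779-164769928 on the plus strand for Ube2c, chr1:134962415-134962564 on the plus strand for Ube2t and chr7:4812341-4812490 on the minus strand for Ube2s.
Ube2c: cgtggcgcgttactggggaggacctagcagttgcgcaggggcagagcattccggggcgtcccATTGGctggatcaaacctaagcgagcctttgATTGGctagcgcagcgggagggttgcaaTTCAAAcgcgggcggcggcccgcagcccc
Ube2t: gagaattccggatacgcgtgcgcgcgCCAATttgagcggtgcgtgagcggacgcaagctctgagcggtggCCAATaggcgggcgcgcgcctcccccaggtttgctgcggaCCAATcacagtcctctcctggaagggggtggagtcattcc
Ube2s: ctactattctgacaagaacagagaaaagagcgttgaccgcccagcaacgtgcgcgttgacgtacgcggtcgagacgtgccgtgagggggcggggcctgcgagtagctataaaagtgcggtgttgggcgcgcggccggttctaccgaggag

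The Ube2c stretch holds 2 CCAAT matches and, closer to the start, 1 TTTGAA match. The Ube2t stretch holds 3 CCAAT matches and no TTTGAA, and the Ube2s window holds neither motif. Of 32851 RefSeq promoter windows of the same length, 24.5% hold CCAAT, 6.02% hold it at least 2 times, and 9.07% hold TTTGAA. A match is a description of letters and not evidence of binding. A promoter entry was found for 55 of the 73 genes.

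The list of anaphase complex and cell cycle genes held 32 genes with a ratio, described in 2 parts that were set after the values were seen. Of 12 subunits and activators of the complex that Ube2c serves, 8 were higher in DBA/1 (median 0.12) and 1 passed 1.5-fold. Of the 20 other cell cycle genes, 17 were higher in DBA/1 (median 0.51) and 9 passed 1.5-fold. No gene of the list was 1.5-fold higher in C57BL/6. Of all genes, 60.6% were higher in DBA/1, 11.8% by 1.5-fold or more, and 6.05% were lower by that much. Cdc20, the activator of the anaphase-promoting complex in mitosis, read 518 and 256 (log2 ratio 1.02), and the mitotic kinase Cdk1 read 340 and 154 (1.14). The core subunits Anapc5, Anapc4 and Anapc1 had ratios of 0.21, 0.041 and -0.22, and the activator Fzr1 one of -0.24. The neutrophil list, which holds granule genes made by dividing precursors, was higher in the same sample (median 1.88); its part in these values was not tested.

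Usp1 is a deubiquitinase with a role in the same repair pathway as Ube2t, where it removes ubiquitin from Fancd2 and from Pcna. It read 1032 in DBA/1 and 724 in C57BL/6 (log2 ratio 0.51, 1.42-fold), the highest ratio among the 31 deubiquitinases as deposited. Its other probe sets read 278 and 216 (0.36) and 156 and 101 (0.63), so all 3 pointed the same way. Pcna itself read 3456 and 2492 (0.47).

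The enzymes of the Rad6 type, Ube2a and Ube2b, ubiquitinate histone H2B and Pcna. Ube2a read 518 and 440.2 (log2 ratio 0.23) and Ube2b 886 and 826 (0.10), within the probe set error. The second probe set of Ube2a was at -0.082. Ube2w, which attaches ubiquitin to the N terminus of substrates, read 211 and 146 (0.54, 1.45-fold).

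Endoplasmic reticulum enzymes, which serve the degradation of misfolded secretory proteins, went both ways. Ube2g2 read 178 and 133 (log2 ratio 0.42), with its second probe set at 0.31. Ube2j1 was at 0.070, Ube2g1 at -0.074 and Ube2j2 at -0.19, all within the probe set error. The heterodimer of Ube2n with Ube2v1 or Ube2v2, which builds signalling chains downstream of Traf6, was close to even: Ube2n read 441 and 420.4 (0.070), Ube2v1 437 and 480.3 (-0.14) and Ube2v2 242 and 282 (-0.22).

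For the modifiers related to ubiquitin, Ube2f, a NEDD8 conjugating enzyme, read 299 and 261 (log2 ratio 0.20), and all 4 of its probe sets were higher in DBA/1 (0.15 to 0.53). From the fixed lists of modifiers, activating enzymes and ligases, Nedd8 read 1104 and 719 (0.62), Nae1 and Uba3, whose products form the NEDD8 activating enzyme, were at 0.48 and 0.54, and Cul3, a cullin that NEDD8 modifies, was at -0.18. Ube2l6, the conjugating enzyme of the interferon-induced modifier ISG15, was under the floor on both arrays at 15.3 and 23.8. Uba7, the activating enzyme of ISG15, read 382 and 398 (-0.059).

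Among the remaining conjugating enzymes, 2 were near or past 1.5-fold in favour of C57BL/6. Ube2o, a large enzyme that combines conjugating and ligase activity, read 37.5 in DBA/1, at the floor, and 57.8 in C57BL/6, at least 1.54-fold higher there. Ube2r2, a partner of cullin ligases, read 143 and 213 (log2 ratio -0.58). Ube2h was at -0.22 in both of its probe sets. Ube2k, at 853 and 768, was at 0.15, as was Ube2z.

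Usp14 and Usp8, the members with roles at the proteasome and on endosomes, were both higher in DBA/1 in the probe sets used. Usp14, which trims chains at the proteasome, read 231 and 173 (log2 ratio 0.42). Its other probe sets did not share this: 1 read 51.5 and 53.4 (-0.051) and 1, with the suffix that marks possible cross-hybridisation, read 42.4 and 99.8 (-1.24), so the mean over its probe sets was -0.29. Uchl5, also bound to the proteasome, read 339 and 286 (0.25). Usp8, which acts on receptors at endosomes, read 234 and 176 (0.41). Psmd14, the deubiquitinase built into the proteasome lid and no member by its symbol, read 1099 and 893 (0.30), while Stambp and Stambpl1, endosomal deubiquitinases of the same fixed list, were at 0.12 and -0.26.

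**Figure D3:**
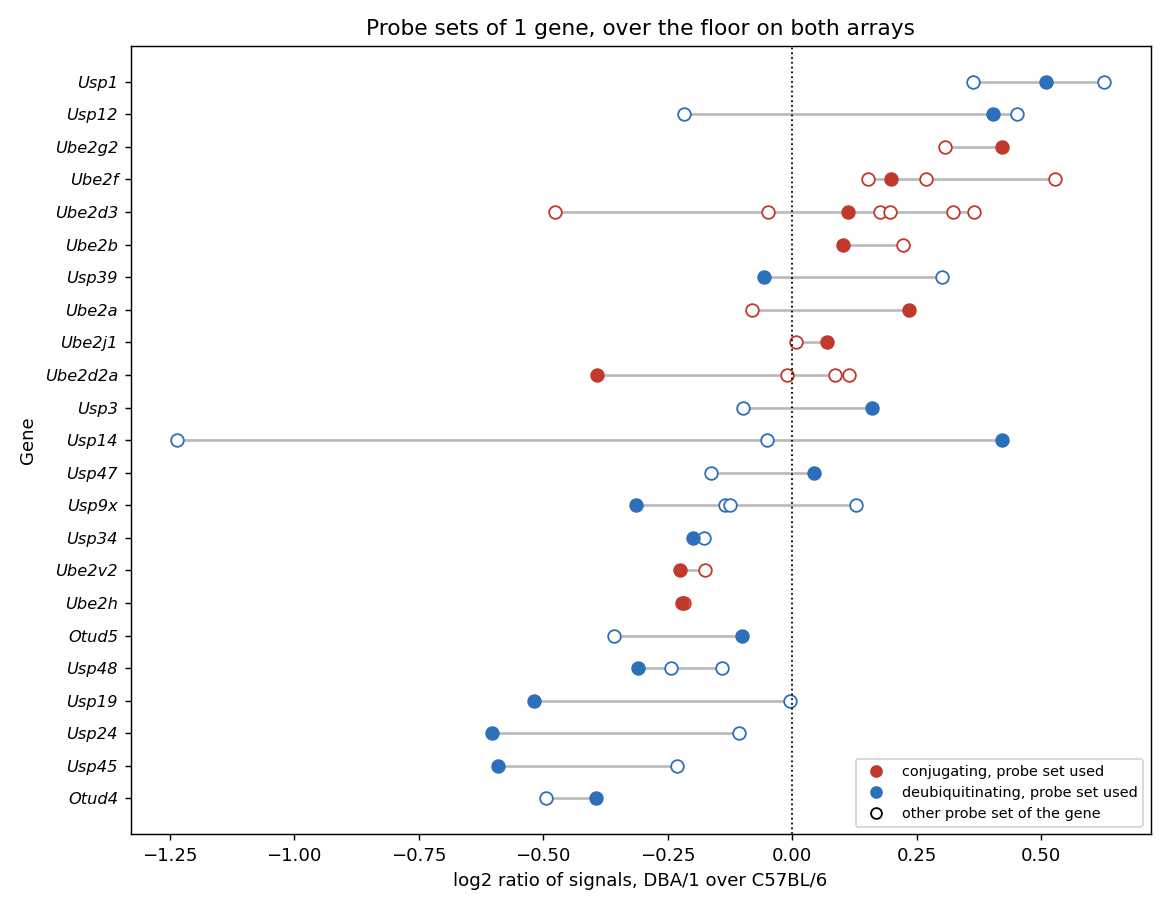
Log2 ratio (DBA/1 over C57BL/6) of each probe set over the floor on both arrays, for the 23 genes with at least 2 of them; filled circles are the probe sets used, red for conjugating enzymes and blue for deubiquitinases, and lines join probe sets of a gene. For 14 of the 23 all probe sets share a sign; Usp14 has the widest span, from -1.24 to 0.42.

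Deubiquitinases with known roles in immune signalling went both ways. Usp12, which stabilises the T cell receptor complex, read 221 and 167 (log2 ratio 0.40), with other probe sets at 0.45 and -0.22. Usp4 read 282 and 228 (0.31) and Usp15 286 and 276 (0.051). Usp25, a regulator of Traf proteins, read 165 and 216 (-0.38), and Usp9x, encoded on the X chromosome, read 132 and 164 (-0.31). Of the 7 probe sets of Usp9x 4 were usable, and 3 of these 4 were lower in DBA/1. Those not used for the gene were at -0.14, -0.12 and 0.13, within the probe set error. Usp11 was at -0.083. The Y-linked Usp9y did not reach the floor on either array.

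The genes listed as deubiquitinases of histones and the DNA damage response had a median near 0 (-0.024 over 8 genes, 4 in each direction). Usp45, which acts on a repair nuclease subunit, was not on that list and is counted below among the other Usp genes. Usp3 and Usp16, which act on histone H2A, were at 0.16 (483 and 432) and -0.13. Usp7, which controls Mdm2 and p53, read 560 and 597 (-0.092). All 3 probe sets of Usp48 were lower in DBA/1, from -0.31 to -0.14. Usp22, of the SAGA complex, was over the floor in DBA/1 only, at least 1.20-fold higher there.

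Of the 11 other Usp genes with a ratio, 10 were lower in DBA/1 (median -0.35), and these hold all 4 deubiquitinases past 1.5-fold; of all genes 39.4% were lower in DBA/1 and 6.05% by 1.5-fold or more. This group is what was left after the named roles, so it has no function in common. Usp36, a deubiquitinase of the nucleolus, read 57.8 in DBA/1 and 134.6 in C57BL/6 (log2 ratio -1.22, 2.33-fold higher in C57BL/6); its second probe set was under the floor. Raising the floor to percentile 60 moved the Usp36 ratio to -0.86, and log2(signal + 32) moved it to -0.89, both under 2-fold. Usp33, which acts on receptors and centrosome proteins, read 84.3 and 157 (-0.90, 1.86-fold), from 1 probe set. Both lay under the 75th percentile of their arrays (171 and 162).

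Usp24 read 125 and 189 (log2 ratio -0.60), and its second probe set was at -0.11. Usp45, which acts on the repair nuclease subunit Ercc1, read 164 and 247 (-0.59), and its second probe set was at -0.23. Usp19, an enzyme of the endoplasmic reticulum membrane, was at -0.52 and in a second probe set at -0.0036, which is no difference. In all 3 genes the second probe set gave a smaller value. Usp5, which recycles free ubiquitin chains, was at -0.35, Usp34, which read 490.3 and 563, at -0.20 with a second probe set at -0.18, Usp38 at -0.089 and Usp10 at -0.052. Usp39, a splicing factor without deubiquitinase activity, had probe sets at -0.057 (346 and 359) and 0.30 (213.0 and 173). Usp20, at 44.6 and 40.6, was the exception (0.14).

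Of the Otud genes, Otud4 read 395 and 519 (log2 ratio -0.39), with its second probe set at -0.49. Otud5, a regulator of Traf3, was at -0.10 and -0.36 in its usable probe sets, and Otud6b at 0.20. Otud7a and Otud7b were under the floor on both arrays, as were Uchl1 and Uchl4. In all, 2 conjugating enzymes and 15 deubiquitinases had no ratio for this reason, and nothing is said of them here.

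The other fixed lists of the ubiquitin system had medians above 0 as deposited, as had all genes (0.10). Deubiquitinases outside these symbol families had a median of 0.12 over 11 genes, with 8 (72.7%) higher in DBA/1, against 60.6% of all genes. Cops5, which removes NEDD8 from cullins, read 512 and 309 (0.73) and Zranb1 209 and 129 (0.70), while Tnfaip3 (A20), a brake on NF-kappaB, read 546 and 706 (-0.37). Whether the families differ was not tested. All 5 measured ubiquitin-like modifier genes had ratios above 0 (median 0.30), as had 4 of 5 activating enzymes (median 0.48). With 5 genes each, and 60.6% of all genes above 0, these counts do not read as a property of the lists.

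Ubiquitin ligases with roles in T cells had a median of 0.058 over 17 genes, and after median centring one of -0.027. Of the 17, 11 (64.7%) were higher in DBA/1, close to the 60.6% of all genes. None passed 1.5-fold, where 11.8% of all genes passed in favour of DBA/1 and 6.05% in favour of C57BL/6. Itch, a ligase of T cell tolerance, read 342 and 291 (0.23). Peli1 read 920.0 and 1164 (-0.34) and Cbl 78.8 and 106 (-0.43). Dtx1 read 760 and 621 (0.29).

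**Figure D4:**
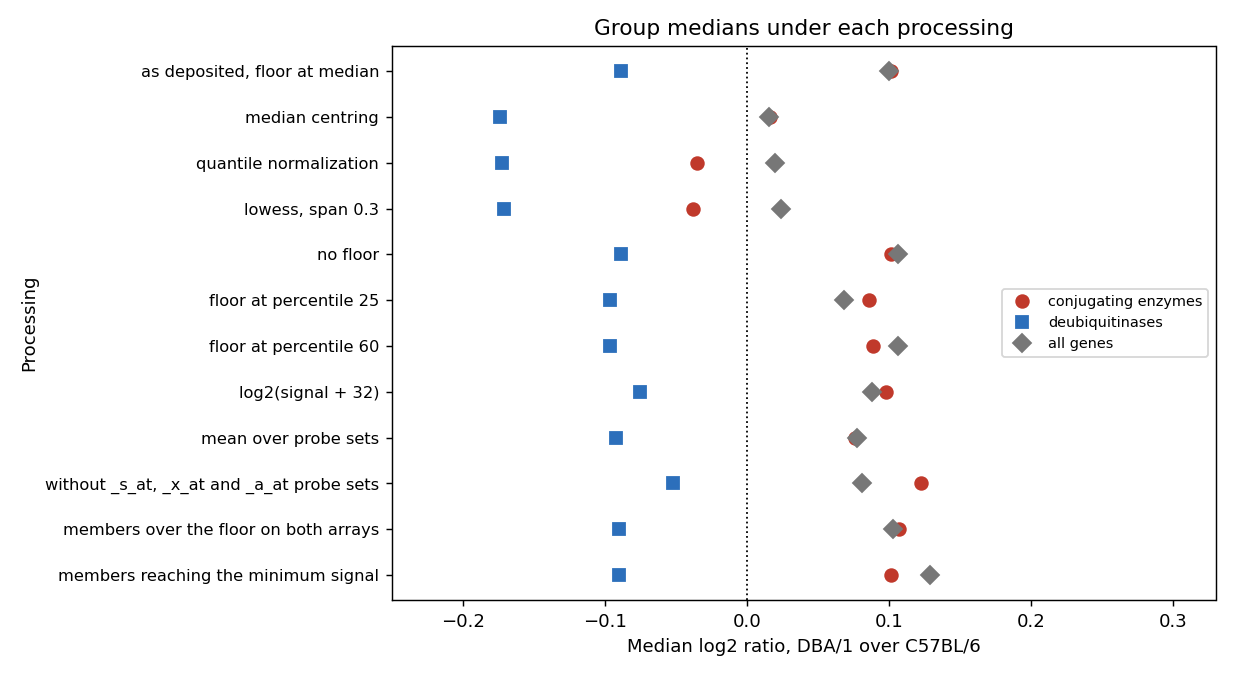
Median log2 ratio (DBA/1 over C57BL/6) of conjugating enzymes (red circles), deubiquitinases (blue squares) and all genes (grey diamonds) as deposited and under 11 other ways of processing. The blue squares lie to the left of the grey diamonds in every row, and the red circles lie left of 0 after quantile normalization (-0.035) and lowess (-0.038). Median centring moves all markers of its row by the same amount, so their spacing there was fixed.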

How the data were processed

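Total RNA of 2 samples, 1 per strain, was labelled from an oligo(dT) primer, per the labels' protocols. The deposited values are probe set intensities from MAS5, per the submitters' processing notes; no source used here gives its version or scaling target. Genes were named from the platform annotation; the symbols of all 73 members matched RefSeq (GRCm38.p6) by Entrez identifier. Signals under an array's median were raised to it, and genes with both signals at or under it received no ratio. With 1 array per strain no test was run, and the number of arrays limits the precision. Class medians and counts stand beside those of all genes with a ratio. The rule for named genes allowed any member and required full values for members at 1.5-fold or more, the 4 of highest signal per class, those next to the limit and those with discordant probe sets. The members and lists were chosen with earlier results of these data known. Summaries were tested on simulated data with less noise than the probe set error, and only for genes over the floor on both arrays. Alternatives covered scaling, floor, log2(signal + 32), probe set choice and members kept. Calculations used Python 3.11.15, pandas 2.3.3, numpy 2.4.6 and statsmodels 0.14.6.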

Additional observations from a re-analysis of the deposited data

How the results depend on the processing

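The deubiquitinase median stayed below 0 in all 11 alternatives (-0.17 to -0.052), and the gap between the class medians stayed between 0.13 and 0.20. Median centring could not change this gap, and without a floor both class medians were the same as reported. Settings that kept only some members used the same ratios for the members kept. The conjugating median turned to -0.035 after quantile normalization and -0.038 after lowess. Members at least 1.5-fold higher in C57BL/6 numbered 5 as reported, 7 under each of the 3 other scalings, 8 with the floor at percentile 25, 3 with the mean over probe sets, 3 without probe sets with an added suffix letter, 2 with log2(signal + 32) and 2 among members reaching the 75th percentile; those higher in DBA/1 numbered 3 as reported, 1 with log2(signal + 32) and 2 to 4 in the other alternatives. The cause was not tested. Of 203 values of 23 named members under alternatives, 194 moved by less than the probe set error and 9 by more. Many of these values could not move further. Median centring shifts every ratio by 0.085, which is under that error. Other floors and other choices of probe sets leave a bright gene with 1 probe set, such as Ube2c, unchanged. The count is therefore no measure of robustness. No replicate could be left out, and no paired analysis was possible because each strain has 1 sample.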
